A study of Morchella sextelata with 15 samples.

Results

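The transcripts described here were much more abundant in morel mycelium grown with S-metolachlor than in any other mycelium of the study. Their means with acetochlor, trifluralin and pendimethalin stayed between 0.5 and 2 times the control mean. They were chosen from the deposited FPKM values (a fragment count divided by transcript length and library depth, so that levels can be compared between transcripts) of all 15 libraries. A transcript was taken when its control mean was at least 0.5 FPKM and its S-metolachlor mean was at least 20 FPKM and at least 8 times the control mean. In addition, its lowest S-metolachlor library had to lie above the 12 other libraries, and its means with the 3 other herbicides each had to lie between 0.5 and 2 times the control mean. Of 20602 transcripts, 43 met this rule. Their rise with S-metolachlor, their separation from the other libraries and their flatness with the other herbicides were therefore set by the choice and are given as descriptions, not as results of a test.

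Morchella sextelata is a cultivated black morel, an ascomycete fungus. Wild-type mycelium was grown at 20 °C for 5 days on potato dextrose agar with S-metolachlor, with acetochlor, with trifluralin, with pendimethalin, or with no herbicide as control. Each herbicide was applied at 10 times its own normal rate, so the concentrations need not be equal between herbicides. Each of the 5 groups had 3 libraries, with library totals between 22923346 and 24766457 expected counts.

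S-metolachlor and acetochlor are chloroacetanilides, herbicides that in plants block the elongases making very-long-chain fatty acids. Plants and many fungi take up such electrophilic compounds and can conjugate them to glutathione. Both molecules carry a chloroacetyl group on the nitrogen of an ethyl- and methyl-substituted aniline. They differ in the second group on that nitrogen, which is a branched methoxyalkyl group in S-metolachlor and an ethoxymethyl group in acetochlor. Trifluralin and pendimethalin are dinitroanilines, which in plants bind tubulin and block microtubule assembly.

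The row names are those of a de novo transcript assembly, and 0 of the 20602 were found among the 13182 genes of the RefSeq table of assembly ASM2013738v1. With names and products thus unassigned, no function is given for any transcript below, and no pathway list could be applied. In bulk mycelium, more cells expressing a transcript and more RNA per cell cannot be told apart.

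The rule narrowed the table in steps. A control mean of at least 0.5 FPKM was met by 15813 transcripts, and an S-metolachlor mean of at least 20 FPKM in addition by 4646. Of those, 258 were at least 8 times the control mean, and in 204 of these the S-metolachlor libraries lay above all others. Among these 204, the acetochlor mean was within 0.5 to 2 times control in 118, the trifluralin mean in 83 and the pendimethalin mean in 80. All of these conditions held together in 43. With acetochlor, trifluralin or pendimethalin in the place of S-metolachlor, the same rule found 0 transcripts each. At the same level thresholds, 45 transcripts were at least 8 times control with acetochlor, 84 with trifluralin and 82 with pendimethalin, beside the 258 with S-metolachlor. In 12, 9 and 2 of these the libraries of that herbicide lay above all 12 others. Those 12 included the S-metolachlor libraries, so these numbers and the 0 depend on the S-metolachlor level too. The numbers for the 4 herbicides share the control libraries and were not tested against each other.

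**Figure D1:**
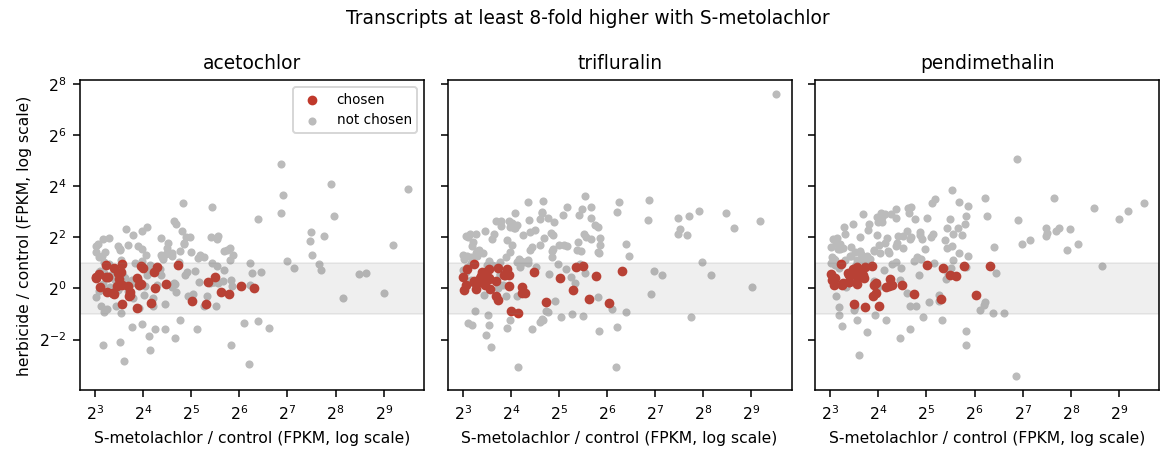
Each point is 1 of the 204 transcripts at least 8 times control with S-metolachlor. The horizontal axis gives the ratio of the S-metolachlor mean to the control mean in FPKM, and the vertical axis the same ratio for acetochlor, trifluralin or pendimethalin, both on log scales. The shaded band runs from 0.5 to 2 times control, and the 43 chosen transcripts lie inside it in all 3 panels by construction. The 1 transcript listed at 0 with acetochlor is not drawn in the acetochlor panel, and the 1 listed at 0 with trifluralin is not drawn in the trifluralin panel.

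Across the 43 transcripts the ratio of the S-metolachlor mean to the control mean ran from 8.07 to 79.6, with a median of 13.2. It was at least 10 in 35 of them, at least 20 in 10 and at least 40 in 6. The ratio to control had a median of 1.11 for acetochlor (0.583 to 1.97), 1.28 for trifluralin (0.510 to 1.94) and 1.26 for pendimethalin (0.599 to 1.93). S-metolachlor means were between 4.92 and 78.7 times the acetochlor means, with a median of 12.1. They were 4.85 to 97.1 times the trifluralin means (median 10.3) and 4.88 to 78.9 times the pendimethalin means (median 10.6). The gap between the groups was wide in most of the transcripts. The lowest S-metolachlor library was 2.45 to 36.1 times the highest of the 12 other libraries, with a median of 5.0.

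**Figure D2:**
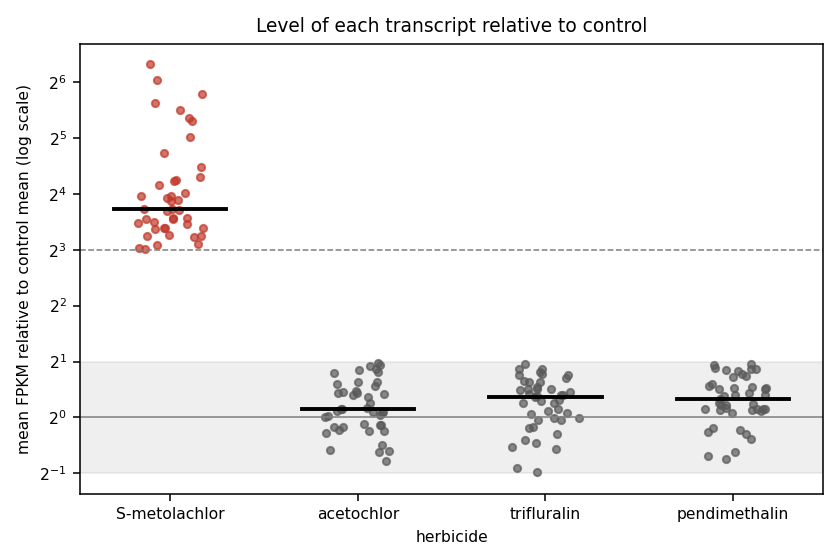
Each point is 1 of the 43 transcripts and gives its mean FPKM with the herbicide divided by its mean in control, on a log scale, with bars at the medians. The dashed line marks 8 times control and the shaded band 0.5 to 2 times control, both set by the rule; medians were 13.2 with S-metolachlor, 1.11 with acetochlor, 1.28 with trifluralin and 1.26 with pendimethalin.

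The FPKM scale itself places the herbicide libraries slightly above control. Over the 17555 transcripts tested in the count fit, the median log2 ratio of FPKM means was 0.295 with S-metolachlor, 0.09 with acetochlor, 0.18 with trifluralin and 0.22 with pendimethalin, whereas the fit's TMM scaling put the medians at 0.09, -0.0043, -0.01 and 0.02. For the 43 transcripts the median log2 fold change on the TMM scale was 3.51 with S-metolachlor (2.78 to 6.13), against a median log2 FPKM ratio of 3.73. It was at least 3, which is 8-fold, in 39 of them and below 3 in 4. With the other herbicides it was -0.01, 0.18 and 0.13 for acetochlor, trifluralin and pendimethalin. The pendimethalin mean was above control in 35 of 43 transcripts in FPKM, but its log2 fold change was above 0 in 26 with TMM and in 24 with the size factors of DESeq2. For trifluralin these numbers were 30 in FPKM, 26 with TMM and 26 with size factors, and for acetochlor 29, 20 and 20.

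In the edgeR fit all 43 passed the filter on low counts, and all 43 were called higher with S-metolachlor, where 46.1% of the transcripts tested were called and 24.4% were called higher (edgeR quasi-likelihood test, adjusted p under 0.05). That contrast was used to choose them, so this share says nothing further. With acetochlor 1 of the 43 was called higher and 0 lower, where 9.72% of the transcripts tested were called, 5.26% higher and 4.46% lower. With trifluralin 0 were called higher and 1 lower, where 14.7% were called, 7.68% higher and 7.0% lower. With pendimethalin 1 was called higher and 0 lower, where 12.9% were called, 7.35% higher and 5.54% lower. These numbers were limited by the rule too. TRINITY_DN3596_c0_g1_i1_1 was the one called higher with acetochlor, TRINITY_DN8721_c0_g3_i8_1 the one called lower with trifluralin, and TRINITY_DN1902_c0_g1_i1_3 the one called higher with pendimethalin. These 3 are named because of their calls, which were not stable. The acetochlor call was made in 6 of 13 alternatives and not with the replicate block. The trifluralin call was made in 3 of 13 and not with the replicate block, and the pendimethalin call in 7 of 13. Their log2 fold changes were 0.89 (SE 0.24), -1.13 (SE 0.35) and 0.66 (SE 0.18), beside 3.35, 3.98 and 3.65 with S-metolachlor.

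The libraries of the other herbicides were also set against control for overlap, on the FPKM scale, which itself places them slightly above control. With acetochlor 2 of the 43 lay wholly above control and 1 wholly below, where 15.8% and 12.1% of the transcripts tested did. With trifluralin 11 lay above and 1 below, where 23.2% and 14.3% did, and with pendimethalin 5 lay above and 2 below, where 18.9% and 10.8% did. The rule held these means within 0.5 to 2 times control, so nothing about the 43 is read from these counts. The highest library outside S-metolachlor was a pendimethalin library in 17 of the 43, an acetochlor library in 16, a trifluralin library in 8 and a control library in 2. No share over all transcripts was taken for this order. Both the rule and the FPKM scale bear on it, so nothing is read from it either.

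The most abundant of the 43 was TRINITY_DN4530_c0_g1_i4_2. It stood at 1472, 1609 and 1543 FPKM in the S-metolachlor libraries, against 98.0, 70.7 and 129.6 FPKM in the control libraries. The acetochlor libraries held 79.6, 73.7 and 179 FPKM, the trifluralin libraries 126, 101 and 89.0 FPKM, and the pendimethalin libraries 56.8, 109 and 180.3 FPKM. The S-metolachlor libraries were close together and more than 8 times the highest of the others, while the other 4 groups overlapped one another. By mean FPKM this transcript ranked 30 among all transcripts with S-metolachlor and 1102 in control. Its fitted log2 fold change was 3.70 (SE 0.46).

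The next in level was TRINITY_DN5683_c0_g1_i2_1, with 964, 937 and 1025 FPKM with S-metolachlor and 110.1, 84.3 and 114 FPKM in control, a rank of 56 against 1070. Its acetochlor libraries held 66.2, 145 and 71.0 FPKM, its trifluralin libraries 215, 77.7 and 76.6 FPKM and its pendimethalin libraries 127, 69.1 and 142 FPKM. All 4 groups outside S-metolachlor overlapped, and 1 trifluralin library was the highest of them. The mean with S-metolachlor was 9.49 times that of control.

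TRINITY_DN4501_c0_g1_i2_2 held 779, 927 and 746 FPKM with S-metolachlor against 51.7, 107 and 50.7 FPKM in control. TRINITY_DN7265_c0_g1_i3_3 held 813, 792 and 720.0 FPKM against 93.9, 109 and 72.5 FPKM. TRINITY_DN8367_c0_g1_i3_1 held 579.6, 597 and 618 FPKM against 61.8, 48.0 and 61.0 FPKM. In each of these the S-metolachlor libraries lay far above control and close to each other, and those of TRINITY_DN8367_c0_g1_i3_1 were the closest together of all 43, with the highest 1.07 times the lowest. Their log2 fold changes were 3.36 (SE 0.26), 2.87 (SE 0.30) and 3.16 (SE 0.27). The acetochlor, trifluralin and pendimethalin means were 1.55, 1.30 and 1.77 times control in TRINITY_DN4501_c0_g1_i2_2 and 1.48, 1.11 and 1.09 times in TRINITY_DN7265_c0_g1_i3_3. In TRINITY_DN8367_c0_g1_i3_1 they were 1.74, 1.57 and 1.18 times control. Its acetochlor libraries (98.9, 83.9 and 114 FPKM) and trifluralin libraries (98.9, 79.0 and 90.7 FPKM) all lay above its control libraries.

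TRINITY_DN11255_c0_g1_i1_5 had 926, 731 and 765 FPKM with S-metolachlor against 41.2, 26.7 and 55.7 FPKM in control, 19.6 times the control mean. Acetochlor replicate 2 stood out in it at 166 FPKM, beside 24.5 and 31.8 FPKM in the other acetochlor libraries. The trifluralin libraries held 31.2, 45.7 and 32.3 FPKM, and the pendimethalin libraries 44.2, 15.5 and 77.3 FPKM. Its acetochlor mean, 1.80 times control, thus rests on 1 library.

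These 6 were the transcripts above 500 FPKM with S-metolachlor, and 22 of the 43 were above 100 FPKM. By mean FPKM, 21 of the 43 were among the top 1000 transcripts with S-metolachlor and 0 were in control. Added up, the 43 made up 1.79%, 1.62% and 1.69% of all FPKM in the S-metolachlor libraries. They made up 0.127% to 0.181% in the acetochlor libraries, 0.136% to 0.152% in the trifluralin libraries, 0.126% to 0.167% in the pendimethalin libraries and 0.117% to 0.121% in the control libraries.

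**Figure D3:**
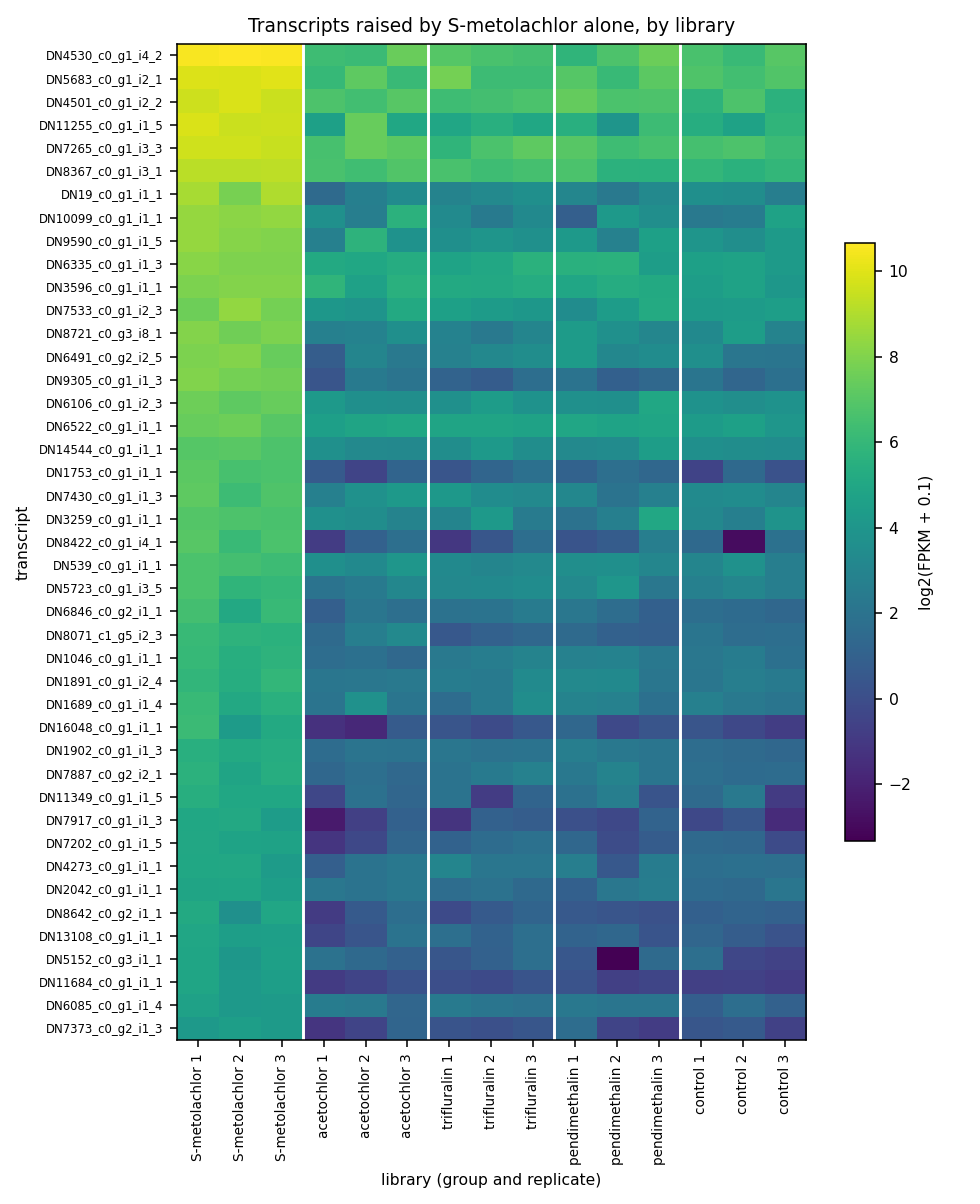
Rows are the 43 transcripts, ordered by their mean with S-metolachlor, and columns the 15 libraries. The colour gives log2(FPKM + 0.1), so that the 3 S-metolachlor columns at the left, from 1542 FPKM on average in the top row to 20.4 FPKM in the bottom row, are brighter than the 12 other columns in every row.

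The largest rises relative to control were in transcripts that were scarce without S-metolachlor. TRINITY_DN1753_c0_g1_i1_1 had 140.1, 95.1 and 105 FPKM with S-metolachlor against 0.600, 2.61 and 1.06 FPKM in control, 79.6 times the control mean. The 9 libraries of the other herbicides lay between 0.636 and 3.53 FPKM, and therefore overlapped control. Its log2 fold change was 6.13 (SE 0.60), or 6.77 without control replicate 2, the highest of the control libraries.

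TRINITY_DN9305_c0_g1_i1_3 had 255, 209 and 195 FPKM with S-metolachlor against 4.21, 2.32 and 3.50 FPKM in control, 65.7 times the control mean. It had the clearest gap of the 43, since its lowest S-metolachlor library was 36.1 times the highest of the others, an acetochlor library at 5.42 FPKM. Its log2 fold change was 5.80 (SE 0.53), with 5.54 to 5.94 when any 1 S-metolachlor or control library was left out.

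TRINITY_DN16048_c0_g1_i1_1 had 74.7, 20.2 and 35.9 FPKM with S-metolachlor against 1.17, 0.730 and 0.482 FPKM in control. Its S-metolachlor libraries spread more than those of any other of the 43, the highest being 3.69 times the lowest. It rested on a mean of 10.9 expected counts in control, and its log2 fold change of 5.54 (SE 0.71) was 4.92 without S-metolachlor replicate 1 and 4.46 with limma on log2(FPKM + 1). TRINITY_DN8642_c0_g2_i1_1 came second in spread, with 36.5, 12.6 and 30.4 FPKM against 1.88, 2.15 and 1.96 FPKM in control. In both, the lowest S-metolachlor library was replicate 2, and it was still above every other library.

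TRINITY_DN8422_c0_g1_i4_1 had 132, 71.6 and 105 FPKM with S-metolachlor against 2.64, 0.0357 and 3.61 FPKM in control. Control replicate 2 was far below the other control libraries in this transcript, and leaving it out lowered the log2 fold change to 4.73, against 5.32 (SE 1.26) with all libraries. Without control replicate 3 it was 5.97, and with limma on log2(FPKM + 0.1) it was 6.49. The other herbicides' libraries lay between 0.381 and 6.17 FPKM.

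TRINITY_DN11684_c0_g1_i1_1 had 29.5, 18.5 and 22.6 FPKM with S-metolachlor against 0.537, 0.555 and 0.469 FPKM in control, and had the lowest control mean of the 43. TRINITY_DN7917_c0_g1_i1_3 had 31.9, 34.8 and 21.4 FPKM against 0.720, 1.21 and 0.224 FPKM. Their log2 fold changes were 5.28 (SE 0.37) and 5.16 (SE 0.90), and 3.99 and 4.16 with limma on log2(FPKM + 1), a scale that understates the change of scarce transcripts. With these and TRINITY_DN16048_c0_g1_i1_1, 3 of the 43 had a control mean below 1 FPKM, 20 were below 5 FPKM and 33 below 20 FPKM. Mean expected counts in control ran from 10.1 to 9025 with a median of 193, and with S-metolachlor from 160.3 to 86136 with a median of 6193, so the control level is the less precise side of most ratios.

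The flattest profiles outside S-metolachlor were those of TRINITY_DN7533_c0_g1_i2_3, TRINITY_DN4530_c0_g1_i4_2, TRINITY_DN5683_c0_g1_i2_1 and TRINITY_DN14544_c0_g1_i1_1. In these the mean of the farthest herbicide differed from control by 0.16, 0.21, 0.26 and 0.27 on the log2 scale in FPKM. TRINITY_DN7533_c0_g1_i2_3 had 192, 329 and 215 FPKM with S-metolachlor against 19.2, 20.6 and 22.5 FPKM in control. Flat means did not require close libraries, since its pendimethalin libraries held 10.9, 21.0 and 37.6 FPKM. TRINITY_DN14544_c0_g1_i1_1 had 123, 133 and 108 FPKM with S-metolachlor, against 12.5, 11.4 and 11.04 FPKM in control, and its 9 libraries with other herbicides lay between 8.998 and 22.1 FPKM.

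The S-metolachlor libraries were the most alike of the 5 groups in these transcripts. The median coefficient of variation over the 43 (the SD as a share of the mean, n = 3 libraries) was 17.6% with S-metolachlor, 45.2% with acetochlor, 27.2% with trifluralin, 41.8% with pendimethalin and 25.9% in control. The rule bears on this, because it required every S-metolachlor library, and no other, to be high. The highest library was at least 3 times the lowest in 1 of the 43 with S-metolachlor, 17 with acetochlor, 6 with trifluralin, 14 with pendimethalin and 7 in control. Within acetochlor, replicate 3 was the highest library in 25 transcripts, replicate 2 in 12 and replicate 1 in 6. The same order was not counted over all transcripts, so it is not read as a trait of the 43. Relative to the control mean, the median over the 43 was 0.780 in acetochlor replicate 1, 1.15 in replicate 2 and 1.41 in replicate 3. The median was 1.32, 1.01 and 1.37 in the pendimethalin replicates 1 to 3, and 1.07, 1.18 and 1.44 in the trifluralin replicates. Single values with these herbicides ran from 0 (pendimethalin replicate 2) to 4.12 times the control mean (acetochlor replicate 3). Those of the control libraries ran from 0.0170 to 2.16 times that mean.

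Among the S-metolachlor libraries, replicate 1 was the highest in 28 of the 43 transcripts, replicate 2 in 10 and replicate 3 in 5. Over the 4646 transcripts that met the 2 level thresholds, replicate 1 was the highest in 33.4%, replicate 2 in 37.0% and replicate 3 in 29.5%. On TMM-scaled CPM (counts scaled to library size) replicate 1 was the highest in 27 of the 43 and in 29.7% of the 4646. Its lead was small in most, and in 1 of the 43 it reached 2 times the mean of the other S-metolachlor libraries. Without S-metolachlor replicate 1, 39 of the 43 still met the rule.

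The thresholds cut through a continuous range. Just inside the 8-fold threshold were TRINITY_DN6522_c0_g1_i1_1, at 163 FPKM with S-metolachlor and 20.1 FPKM in control (8.07 times), and TRINITY_DN2042_c0_g1_i1_1, at 26.9 FPKM with S-metolachlor and 3.29 FPKM in control (8.18 times). Just outside it, with every other condition met, were TRINITY_DN4230_c0_g1_i2_1, at 123 FPKM with S-metolachlor and 15.98 FPKM in control (7.73 times), and TRINITY_DN10744_c0_g1_i1_4, at 124 FPKM with S-metolachlor and 16.6 FPKM in control (7.50 times). Just above 20 FPKM with S-metolachlor were TRINITY_DN7373_c0_g2_i1_3 at 20.4 FPKM and TRINITY_DN6085_c0_g1_i1_4 at 21.3 FPKM. Just below it were TRINITY_DN13934_c0_g1_i1_3 at 18.4 FPKM and TRINITY_DN5474_c0_g1_i1_3 at 16.7 FPKM. Some of the 43 also lay near an edge of the range set for the other herbicides. TRINITY_DN6085_c0_g1_i1_4 was at 1.91, 1.94 and 1.93 times control with acetochlor, trifluralin and pendimethalin. The highest ratio was 1.97, in TRINITY_DN3596_c0_g1_i1_1 with acetochlor, and the lowest 0.510, in TRINITY_DN8721_c0_g3_i8_1 with trifluralin.

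The names of the assembly carry a Trinity gene (the part before the isoform number) and a final digit from 1 to 5 that no source used here explains. The 43 transcripts carry 43 different Trinity gene names. Names ending in 1 made up 22 of the 43, or 51.2%, against 26.6% of the 4646 transcripts that met the level thresholds and 39.7% of the 204 raised ones. Names ending in 2, 3, 4 and 5 made up 2, 10, 3 and 6. The relative length, taken from the ratio of expected count to FPKM with the median of all transcripts set to 1, had a median of 1.85 over the 43 (0.313 to 4.83), close to the 1.89 of the 4646.

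Transcripts with the same Trinity gene name that the rule did not choose were also measured. Of the 43 transcripts 26 shared their Trinity gene with 37 other transcripts, all of which ended in another digit. Among all 20602 transcripts, 11597 shared a Trinity gene with another, and 0 of them shared the last digit too. Of the 37, 33 passed the filter on low counts, 3 of them (9.09%) were called higher with S-metolachlor and 12 (36.4%) lower, and 18 were not called (edgeR, adjusted p under 0.05). Over all transcripts tested, 24.4% were called higher and 21.7% lower. The median log2 fold change of these 33 was -0.33, beside 0.09 over all transcripts tested. Whether a shared name in this assembly means a shared gene is not given, and their sequences were not analysed here. Names that differed in the last digit alone could stand for transcripts of unlike length. TRINITY_DN10099_c0_g1_i1 had a relative length of 2.91 with final digit 1, 0.470 with 3 and 0.636 with 5. A shared Trinity gene is therefore taken here as a shared label, and not as isoforms of 1 gene.

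TRINITY_DN4501_c0_g1_i1_5, which shares its Trinity gene with one of the 6 most abundant of the 43, moved the other way. TRINITY_DN4501_c0_g1_i1_5 had 15.01 ± 1.60 FPKM with S-metolachlor and 88.9 ± 5.96 FPKM in control (SD, n = 3 each). Its log2 fold change was -2.80, with an SE of 0.20 and an edgeR adjusted p of 1.91e-06. It had 75.9 ± 12.2 FPKM with acetochlor, 72.3 ± 14.6 FPKM with trifluralin and 64.0 ± 7.53 FPKM with pendimethalin. TRINITY_DN4273_c0_g1_i1_1 had 28.5 ± 7.40 FPKM with S-metolachlor and 3.33 ± 0.139 FPKM in control. Its Trinity gene name was also carried by TRINITY_DN4273_c0_g1_i2_2. That transcript was abundant in both groups, with 1086 ± 180.3 FPKM with S-metolachlor and 1257 ± 132 FPKM in control, and was not called (log2 fold change -0.43, SE 0.22, edgeR adjusted p = 0.131). TRINITY_DN4273_c0_g1_i1_3 fell to 8.66 ± 0.247 FPKM, against 47.9 ± 15.7 FPKM in control (log2 fold change -2.72, edgeR adjusted p = 0.000118). With acetochlor, trifluralin and pendimethalin it had 16.6 ± 7.63, 12.2 ± 4.18 and 17.8 ± 4.52 FPKM, so in this transcript the other herbicides lay below control too.

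TRINITY_DN19_c0_g1_i1_1 had 454, 224 and 513 FPKM with S-metolachlor against 12.5, 11.6 and 6.08 FPKM in control. TRINITY_DN19_c0_g1_i1_3, with the same Trinity gene name, fell to 24.7 ± 0.959 FPKM, against 40.9 ± 5.22 FPKM (log2 fold change -0.95, edgeR adjusted p = 0.000167). TRINITY_DN19_c0_g1_i1_4 was not called (0.18, edgeR adjusted p = 0.456). TRINITY_DN10099_c0_g1_i1_1 had 342, 298 and 339 FPKM with S-metolachlor against 4.87, 5.78 and 26.1 FPKM in control, and its log2 fold change was 4.44 (SE 0.98), or 5.73 without control replicate 3. Its Trinity gene name was shared by 1 of the 3 transcripts called higher, TRINITY_DN10099_c0_g1_i1_5. That transcript was at 2.25 ± 0.653 FPKM with S-metolachlor and 0.0317 ± 0.0548 FPKM in control (edgeR adjusted p = 0.00543). The other transcripts called higher under a shared name were TRINITY_DN8422_c0_g1_i1_3, at 8.22 ± 1.74 FPKM with S-metolachlor and 2.74 ± 1.23 FPKM in control, and TRINITY_DN9590_c0_g1_i1_4, at 31.9 ± 2.14 FPKM with S-metolachlor and 17.7 ± 3.12 FPKM in control. The last pair are named because they complete the 3 transcripts called higher.

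**Figure D4:**
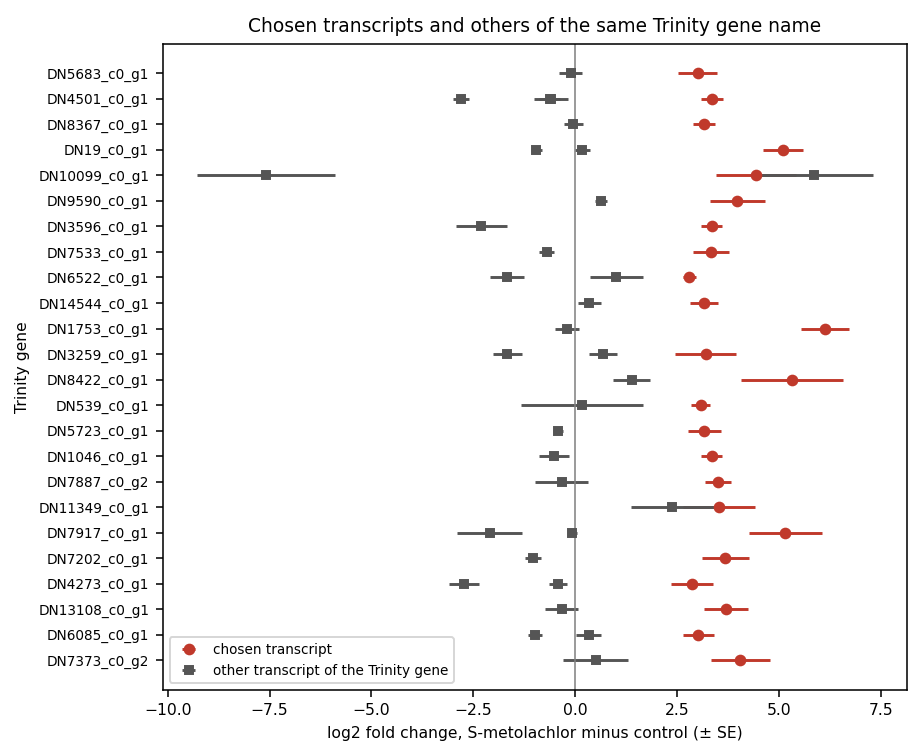
For the 24 Trinity gene names with another tested transcript, red circles give the log2 fold change (S-metolachlor minus control, edgeR) of the chosen transcript. Grey squares give that of the 33 other transcripts, with bars of 1 SE. A row joins transcripts by name alone. The red circles lie at 2.80 or above because of the rule, whereas the squares run from -7.60 to 5.88 with a median of -0.33.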

How the data were processed

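RNA-seq of 15 libraries was analysed from 2 tables of the same 20602 transcripts. The authors deposited expected counts (estimated fragments per transcript, 11.8% of them whole numbers) and FPKM values. The submitters' processing notes list Bowtie2, DESeq and Trimmomatic, and a mouse build, mm10; each of the 20602 row names, however, is of Trinity form. No source used here names the counting program. Fragments shared by similar transcripts may have been divided between them, so single values are uncertain in that respect.

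The membership rule was applied to FPKM. Expected counts were rounded, filtered with filterByExpr (minimum count 10, minimum total 15, 17555 kept), scaled by TMM and fitted with edgeR 4.0.16 (R 4.3.3), with 1 mean per group over all 15 libraries. Quasi-likelihood tests of each herbicide against control were adjusted by the Benjamini-Hochberg method over all transcripts tested and called under 0.05. SE was derived from each log2 fold change and its F statistic. Alternatives used DESeq2 1.42.0, limma 3.58.1 on log2(FPKM + 1) and log2(FPKM + 0.1), other scaling and filters, other rule thresholds, and single libraries left out.

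The transcripts and the lists were chosen with earlier results of these data known. Transcripts were named by level (6), fold (6), flatness (4), nearness to a threshold, widest and narrowest spread, and most other transcripts in the Trinity gene, with ties broken by level; further ones are marked in the text. The labels do not say whether libraries came from separate cultures, so p-values measure the spread between these libraries.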

Additional observations from a re-analysis of the deposited data

How the results depend on the processing

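The rule found 129 transcripts at 4 times control, 15 at 16 times control and 16 with the other herbicides within 1.5 times control. It found 47 on TMM-scaled CPM, of which 34 were among the 43, and 34 to 47 when any 1 library was left out. These totals hide changes of membership. Of the 43, 9 were lost without acetochlor replicate 3, and 6, 7 and 7 without control replicates 1, 2 and 3. Leaving out any other library lost 0 to 4. With S-metolachlor all 43 were called higher in each alternative run except DESeq2, where 42 were called and TRINITY_DN3259_c0_g1_i1_1 was given no adjusted p. The 22 named log2 fold changes kept their direction and call in all 286 alternative values, but not always their size. Beside the limma values given above, that of TRINITY_DN7373_c0_g2_i1_3 was 3.39 on log2(FPKM + 1), against 4.05 with edgeR, and that of TRINITY_DN10099_c0_g1_i1_1 was 5.15 on log2(FPKM + 0.1), against 4.44. The transcripts called over the whole table numbered 8098 with S-metolachlor, and 6506 to 7814 without 1 library. With acetochlor 1706 were called, 601 to 1829 without 1 library, 2847 with DESeq2 and 861 with the 2 compared groups alone in the fit. With trifluralin 2578 were called, 884 to 3229 without 1 library, 4015 with DESeq2 and 1268 with the 2 groups alone. With pendimethalin 2263 were called, 795 to 3046 without 1 library, 3555 with DESeq2 and 389 with the 2 groups alone. The libraries whose removal lowered these numbers by over 1.5 times were control replicates 1 and 3 for acetochlor (601 and 878), trifluralin (944 and 918) and pendimethalin (795 and 886), and also acetochlor replicates 1 and 3 (937 and 1114), trifluralin replicate 3 (884) and pendimethalin replicates 1 and 2 (1299 and 1089). Of the 43, the number called with acetochlor was 0 on log2(FPKM + 0.1) with limma, with the 2 groups alone and with the replicate block, and 0 to 2 without 1 library. With trifluralin it was 2 with DESeq2 and with its size factors, 0 with limma on both scales, without the filter, with the 2 groups alone and with the replicate block, and 0 to 1 without 1 library. With pendimethalin it was 0 with the 2 groups alone and 0 to 2 without 1 library. Of the other transcripts of the same Trinity genes, 5 were called higher and 9 lower with limma on log2(FPKM + 0.1), against 3 and 12 with edgeR. With limma on log2(FPKM + 1), 4 were called higher and 9 lower. Without 1 library, 2 to 3 were called higher and 11 to 13 lower. The cause of these moves was not tested. Over the whole table the share of S-metolachlor calls that were higher was 52.9% with TMM and 65.2% with limma on log2(FPKM + 1). With limma on log2(FPKM + 0.1) it was 64.4% for S-metolachlor, 63.7% for trifluralin, against 52.3% with TMM, and 67.7% for pendimethalin. With the 2 groups alone in the fit it was 44.6% for acetochlor and 35.5% for pendimethalin, against 54.1% and 57.0% with all groups.

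Replicate numbers were not taken to pair the libraries, since for no herbicide did all 3 same-numbered pairs with control deviate together with a correlation over 0.1. For replicates 1 to 3 the correlations were 0.0765, 0.019 and -0.0209 with S-metolachlor, and -0.0894, -0.0858 and -0.0909 with acetochlor. They were -0.00978, -0.178 and -0.299 with trifluralin, and 0.0724, 0.137 and 0.399 with pendimethalin. With the replicate block 7666 transcripts were called with S-metolachlor, 1276 with acetochlor, 1890 with trifluralin and 1735 with pendimethalin.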

Other observations

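The 161 transcripts that were at least 8 times control with S-metolachlor, without overlap, but fell outside the range of 0.5 to 2 times control with another herbicide, were outside it with 1 herbicide in 45, with 2 in 62 and with 3 in 54. Of the 54, 45 were above 2 times control with acetochlor, trifluralin and pendimethalin alike, and 5 were below 0.5 times control with all of these. Of the 45 that were outside with 1 herbicide, 11 were outside with acetochlor, 19 with trifluralin and 15 with pendimethalin. The median ratio to control of the 161 was 24.3 with S-metolachlor, 1.62 with acetochlor, 2.59 with trifluralin and 2.92 with pendimethalin.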
